A study of Mus musculus with 16 samples.

Results

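The expression profile of cold-exposed fat lacking Mettl3 in adipocytes was set against that of warm wild-type fat, to see which genes of adipose tissue still differ from warm fat when cold is met without adipocyte Mettl3. Genes entered where they had at least 1 RPKM in at least 2 of the 4 input libraries of the 2 groups, and 12565 of the 17883 listed genes did. RPKM, reads scaled to gene length and library size, is the authors' deposited unit. At the edge of this rule, Rundc3b, Myo5b and Prr22 were just inside with a second-highest value of 1.00 RPKM, and Scn2b, Abcg4 and BC051142 were just outside with 0.998, 0.998 and 0.996 RPKM. Of the 5318 genes left out, 1048 were listed at 0 in all 4 libraries.

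All mice were C57BL/6, were 8 weeks old and carried METTL3 flox/flox alleles. The cKO cold mice also carried Adipoq-Cre +/-, a recombinase driven by the adiponectin promoter of adipocytes, so the other cells of the tissue keep the gene. They were kept singly at 4 °C for 7 days. The WT cold mice had no Cre and the same cold, and the WT RT mice had no Cre and were untreated at room temperature. Each condition has 2 libraries of input RNA and 2 of RNA pulled down for its N6-methyladenosine (m6A) with an antibody, and the cold conditions also have 2 libraries each of ribosome footprints, which makes 16 libraries in 8 groups. The study concerns white fat; the labels name no depot and do not say that replicates were separate animals, so the p-values measure only the spread between libraries, which may be technical. Between cKO cold and WT RT, genotype, temperature and the series of library codes all change together and cannot be told apart, so the WT cold values are given beside the main ones.

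Adipose tissue meets cold with noradrenaline from sympathetic nerves, which acts through beta-adrenergic receptors and cAMP to release fatty acids from lipid droplets. Some white adipocytes then become beige: they build mitochondria and switch on Ucp1, whose protein lets protons leak back across the inner mitochondrial membrane and so turns fuel into heat. METTL3 is the methyltransferase subunit that places m6A on mRNA, a mark that bears on the splicing, decay and translation of the message.

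The input libraries held 4511639 and 3895031 reads in cKO cold, 8673393 and 4453872 in WT cold, and 7746445 and 7401865 in WT RT, as recovered from the RPKM values. Pearson's r between replicates across genes, on the log2 scale, was 0.959 in cKO cold, 0.964 in WT cold and 0.986 in WT RT, so the WT RT libraries were the closest pair. Mitochondrial mRNAs took 6.22% and 6.62% of the reads in cKO cold, 15.1% and 13.7% in WT cold, and 5.78% and 5.92% in WT RT. Whether all reads assigned to Lars2, a nuclear gene, come from its mRNA was not tested. In 1 alternative scaling it was left out together with Gm20594 and the mitochondrial mRNAs. Reads assigned to Lars2 alone took 8.92% and 8.52% in cKO cold, 7.74% and 9.87% in WT cold, and 2.28% and 3.02% in WT RT. Because RPKM is a share of all reads, a gain of some genes lowers the values of the others. Scaling outside mitochondrial mRNAs, Lars2 and Gm20594 moved the median log2 change over WT RT from -0.24 to -0.14 in cKO cold. In WT cold it moved from -0.68 to -0.45. The source of the shift was not tested. Counts of calls in cKO cold over WT RT are therefore given as deposited and again after each library was centred on its median gene. Values of single genes are as deposited, with the centred value where the call of cKO cold over WT RT changes.

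Mettl3 itself, the targeted gene, had 3.83 and 1.90 RPKM in cKO cold, 5.24 and 3.66 RPKM in WT cold, and 10.8 and 9.27 RPKM in WT RT. It was lower in cKO cold than in WT RT with a change of -1.55 ± 0.30 on the log2 scale (SE, n = 2 libraries per group; limma adjusted p = 0.00898). That call was lost when either WT RT replicate was left out (limma adjusted p between 0.091 and 0.122). As deposited, cold libraries of both genotypes lay below WT RT, and those labelled cKO cold overlapped WT cold. Their log2 difference was -0.53 (95% interval -1.23 to 0.18, limma adjusted p = 0.214). After centring, cKO cold over WT cold was -1.02 (95% interval -1.67 to -0.38, limma adjusted p = 0.0541). WT cold over WT RT was then -0.22 and not called (limma adjusted p = 0.557). In the footprints Mettl3 stood at 8.99 and 5.22 RPKM in cKO cold and at 4.598 and 4.82 RPKM in WT cold. After centring the input difference was larger but not called. As deposited, the gene's own values do not separate the libraries labelled cKO cold from WT cold. They cover the whole gene, including parts that Cre leaves in place, and the whole tissue, in which fewer cells of a type and less RNA per cell cannot be told apart. Adipoq, the adipocyte hormone adiponectin, was abundant throughout, at 621 and 724 RPKM in cKO cold, 498 and 471 RPKM in WT cold, and 566 and 523 RPKM in WT RT, with a change of 0.30 as deposited (limma adjusted p = 0.133) and of 0.61 after centring (limma adjusted p = 0.0209).

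Of the 12565 genes, 1059 were called higher in cKO cold than in WT RT (8.43%) and 3130 lower (24.9%), where a call is a limma adjusted p under 0.05 over all genes tested. The median gene lay at -0.24 on the log2 scale. With each library centred on its median gene, 2242 were higher (17.8%) and 1861 lower (14.8%), and the median lay at 0.07. The pair of WT RT libraries carries much of this count: without replicate 1 of WT RT, 154 genes were called higher and 794 lower, and without its replicate 2, 185 and 917. In those fits the lone WT RT library is assumed to vary like the other groups. In WT cold against WT RT, which uses the same WT RT libraries, 807 were higher (6.42%) and 6513 lower (51.8%), with a median of -0.68; after centring these counts were 3065 and 1943. That total of 7320 was 3357 without WT RT replicate 1 and 3924 without its replicate 2.

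**Figure D1:**
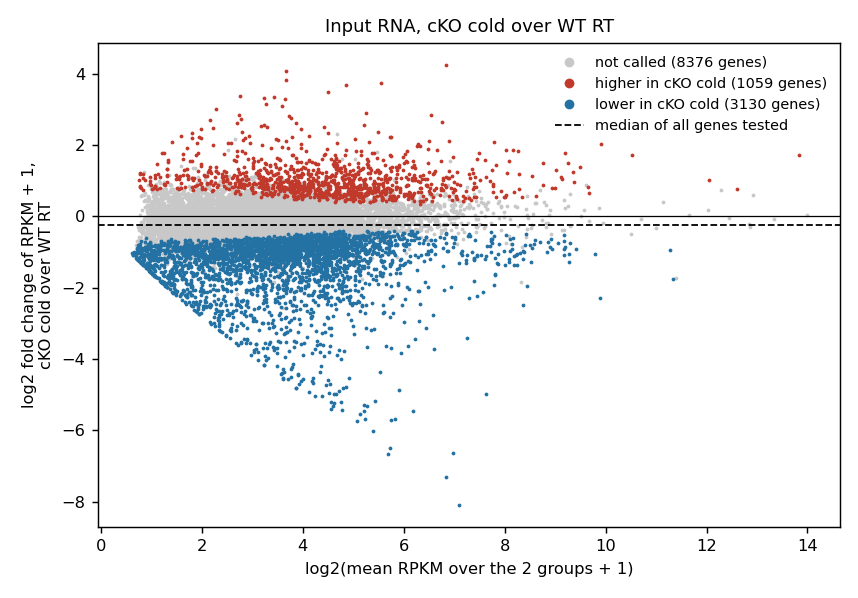
Change of each of the 12565 genes tested, as the log2 fold change of RPKM + 1 in cKO cold over WT RT, against its mean level over both groups (log2 of RPKM + 1). Red points are the 1059 genes called higher and blue points the 3130 called lower; the dashed line marks the median of -0.24. The straight lower edge is formed by genes at or near 0 in cKO cold.

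Part of the thermogenic programme was higher in cKO cold than in WT RT, and part was at or below the warm level. Of 31 tested thermogenic and beige markers, 7 were called higher and 3 lower, with a median log2 fold change of 0.15, against 8.43%, 24.9% and -0.24 over all genes. After centring 10 were higher and 3 lower. In WT cold over WT RT, 23 of the same 31 were higher and 4 lower, with a median of 1.84. Without replicate 1 of WT RT 3 were called higher and 2 lower in cKO cold, and without its replicate 2, 3 and 3.

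Elovl3, an elongase that makes very long fatty acids in cold-exposed brown fat, had 7.78 and 15.01 RPKM in cKO cold, 84.5 and 54.5 RPKM in WT cold, and 0.0686 and 0.215 RPKM in WT RT. Both cKO cold libraries lay far above both warm ones and below both WT cold ones. The log2 fold change of cKO cold over WT RT was 3.38 ± 0.33 (limma adjusted p = 0.000834), and that of cKO cold over WT cold was -2.54 (95% interval -3.33 to -1.74; limma adjusted p = 0.00607). Dio2, the deiodinase that makes active thyroid hormone inside the adipocyte, had 4.57 and 3.71 RPKM in cKO cold, 11.4 and 11.0 RPKM in WT cold, and 0.311 and 0.395 RPKM in WT RT. It stepped up in the same order, with 1.92 ± 0.20 on the log2 scale over WT RT (limma adjusted p = 0.00103). Clstn3, a gene of calsyntenins of which 1 form is known from the lipid droplets of brown fat, had, over the whole gene, 9.28 and 8.83 RPKM in cKO cold, 12.1 and 12.4 RPKM in WT cold, and 1.77 and 1.92 RPKM in WT RT. It rose by 1.82 ± 0.18 on the log2 scale over WT RT (limma adjusted p = 0.000779), and the cold groups differed by -0.39 (95% interval -0.82 to 0.03; limma adjusted p = 0.134). After centring, Clstn3 in cKO cold over WT cold was -0.89 and called lower (95% interval -1.32 to -0.47; limma adjusted p = 0.0235).

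The tests of cKO cold against WT cold used throughout come from the fit of 6 input libraries, in which 3013 genes were higher (24.0%) and 348 lower (2.77%). Although the WT RT libraries are not part of that contrast, they enter its estimate of the spread: with the 4 cold libraries alone, or without either WT RT replicate, 1 gene was called, while 4071 had an unadjusted p under 0.05 in the fit of 4. It was 1895 without WT cold replicate 2 and 1832 without cKO cold replicate 1, against 3361 in all, and after centring 612 were higher and 965 lower. Such differences of single genes are therefore given as sizes more than as calls, most with their interval, and not for every gene. The intervals come from that same fit and may be too narrow for the cold groups. The median absolute log2 difference between replicates was 0.265 in cKO cold, 0.268 in WT cold and 0.124 in WT RT.

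Promoters of 3 thermogenic members are shown here because they carry the core of the cAMP response element, the element through which CREB-family factors act downstream of beta-adrenergic signalling. Each runs from 250 bases before to 50 bases after the RefSeq start on GRCm38.p6 (mm10), in the direction of the gene, and capitals mark the motif. Dio2 lies at chr12:90738989-90739288 on the minus strand, Clstn3 at chr6:124464735-124465034 on the minus strand and Ucp1 at chr8:83290098-83290397 on the plus strand.
Dio2: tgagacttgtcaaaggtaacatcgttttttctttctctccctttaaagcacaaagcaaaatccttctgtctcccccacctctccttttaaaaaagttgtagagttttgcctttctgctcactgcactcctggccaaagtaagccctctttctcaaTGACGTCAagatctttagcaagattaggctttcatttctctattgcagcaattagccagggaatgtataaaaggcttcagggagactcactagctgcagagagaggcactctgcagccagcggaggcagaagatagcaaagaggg
Clstn3: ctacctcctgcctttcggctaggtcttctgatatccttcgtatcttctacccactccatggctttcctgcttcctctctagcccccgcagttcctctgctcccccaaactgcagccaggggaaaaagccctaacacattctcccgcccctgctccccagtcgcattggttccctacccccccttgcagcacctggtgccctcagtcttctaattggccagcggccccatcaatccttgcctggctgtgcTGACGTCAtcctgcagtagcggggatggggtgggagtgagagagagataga
Ucp1: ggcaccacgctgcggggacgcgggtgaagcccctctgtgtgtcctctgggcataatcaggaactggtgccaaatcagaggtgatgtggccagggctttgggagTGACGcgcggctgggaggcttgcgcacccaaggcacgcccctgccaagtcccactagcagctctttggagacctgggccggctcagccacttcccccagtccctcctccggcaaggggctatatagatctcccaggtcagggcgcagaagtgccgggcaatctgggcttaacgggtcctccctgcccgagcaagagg
Dio2 and Clstn3 hold the full palindrome TGACGTCA, starting 95 and 1 bases before the start, and Ucp1 holds the short form TGACG, starting 147 bases before it. Both motifs were searched on both strands, and the full one contains the short one. RefSeq promoters were matched by symbol for 26 of the 31 thermogenic members, of which 2 held the full motif and 9 the short one. Among all 27025 genes with such a promoter, 2.03% held the full motif and 23.0% the short one. The motif was chosen with the sequences in view and is a description only. The promoter shown for Clstn3 is that of the RefSeq gene start and need not be the one that adipocytes use.

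Cyp2b10, a cytochrome P450 listed as a beige fat marker, had 2.68 and 8.88 RPKM in cKO cold, 12.3 and 27.1 RPKM in WT cold, and 0.213 and 0 RPKM in WT RT. Reads were few in warm fat, 3 against 85 in cKO cold, and the ratio of the summed reads per depth was 51.1 (95% interval 16.9 to 252, counting error only). Cox7a1, the muscle and brown fat form of a complex IV subunit, had 15.99 and 31.2 RPKM in cKO cold, 84.9 and 100.5 RPKM in WT cold, and 9.31 and 9.75 RPKM in WT RT. Gk, the glycerol kinase that lets adipocytes reuse glycerol, had 5.33 and 5.28 RPKM in cKO cold, 34.9 and 16.9 RPKM in WT cold, and 1.51 and 1.89 RPKM in WT RT. All of these were above warm fat in each cKO cold library, with log2 fold changes over WT RT of 2.45 ± 0.52, 1.15 ± 0.29 and 1.23 ± 0.33. These calls did not hold in every fit: without WT RT replicate 1 or 2, for Cyp2b10 and Gk also without cKO cold replicate 2, and for Gk without cKO cold replicate 1 or the filter, the limma adjusted p lay between 0.0524 and 0.136 for Cyp2b10, between 0.149 and 0.177 for Cox7a1, and between 0.0573 and 0.212 for Gk. Kng2, a kininogen named here only to complete the count, was the other member called higher (log2 fold change 1.23 ± 0.29), a call lost without any 1 library of cKO cold or WT RT (limma adjusted p between 0.0576 and 0.146).

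**Figure D2:**
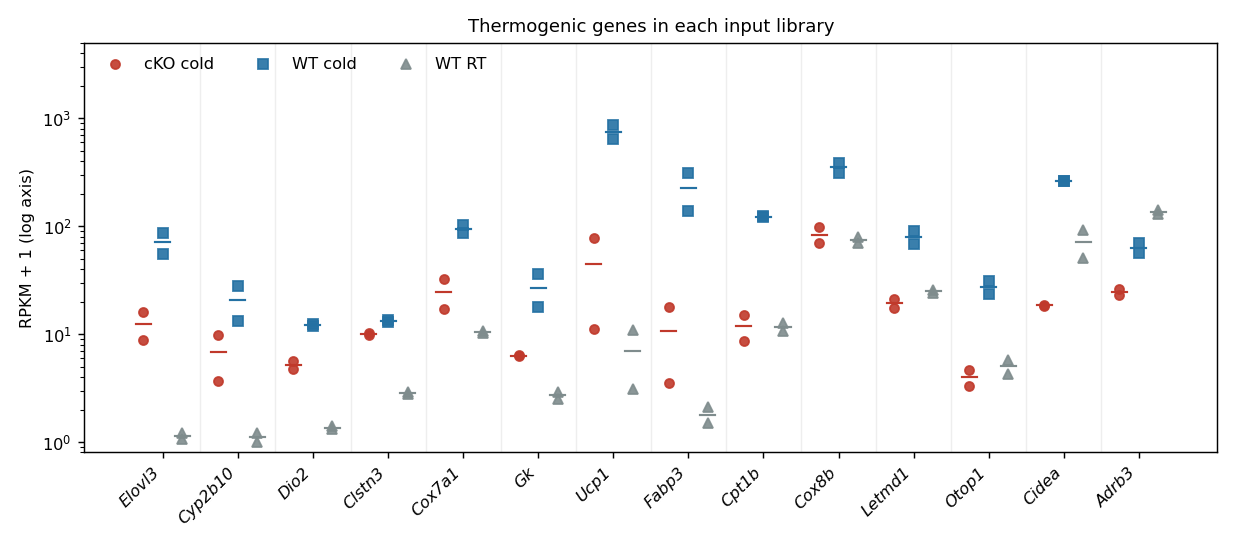
RPKM + 1 on a log axis in each input library for 14 thermogenic and adrenergic genes; each point is a library, and the short line is the mean of the 2 libraries plus 1. Elovl3, Cyp2b10, Dio2, Clstn3, Cox7a1 and Gk are above the WT RT points in both cKO cold libraries, while Cidea and Adrb3 are below them and Ucp1 differs widely between the cKO cold libraries.

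Ucp1 had 76.3 and 10.04 RPKM in cKO cold, 854 and 639 RPKM in WT cold, and 2.13 and 9.91 RPKM in WT RT. The cKO cold libraries differed several-fold from each other, and the lower of them was level with the higher WT RT library. The log2 fold change over WT RT was 2.32 ± 0.92 and was not called (limma adjusted p = 0.0936; 0.0652 after centring), and that of cKO cold over WT cold was -4.66 (95% interval -6.85 to -2.48). Fabp3, a fatty acid carrier of oxidative tissues, split the same way, with 17.0 and 2.50 RPKM in cKO cold, 309.7 and 137 RPKM in WT cold, and 1.10 and 0.492 RPKM in WT RT (log2 fold change over WT RT 2.16 ± 0.74; limma adjusted p = 0.0628, and 0.0368 after centring). The cKO cold library with more Ucp1 was also the one with more Fabp3.

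Cpt1b, the muscle and brown fat form of the enzyme that admits long-chain fatty acids to mitochondria, had 14.1 and 7.54 RPKM in cKO cold, 120.4 and 123 RPKM in WT cold, and 9.67 and 11.7 RPKM in WT RT. Its cKO cold values lay around the warm ones, with a log2 fold change of -0.04 ± 0.26 over WT RT, a value that turns positive after centring (0.28; limma adjusted p = 0.458). Cox8b, another complex IV subunit of brown fat, had 68.9 and 96.3 RPKM in cKO cold, 387 and 312 RPKM in WT cold, and 68.1 and 78.8 RPKM in WT RT, and was likewise not called (log2 fold change 0.15 ± 0.20; limma adjusted p = 0.581). Letmd1, a mitochondrial protein needed for heat production in brown fat, had 20.2 and 16.4 RPKM in cKO cold, 89.3 and 66.8 RPKM in WT cold, and 23.0 and 24.7 RPKM in WT RT. Otop1, a proton channel of brown fat, had 2.33 and 3.68 RPKM in cKO cold, 29.9 and 22.4 RPKM in WT cold, and 3.25 and 4.77 RPKM in WT RT. Neither was called against WT RT (limma adjusted p = 0.161 and 0.381). Ppargc1a, the coactivator that drives mitochondrial growth, had 2.61 and 2.86 RPKM in cKO cold, 6.46 and 10.7 RPKM in WT cold, and 1.86 and 2.03 RPKM in WT RT, and was not called (log2 fold change 0.34 ± 0.26; limma adjusted p = 0.34). For all 5 of these genes every WT cold library lay above every library of the other groups.

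Cidea, a lipid droplet protein abundant in brown and beige fat, fell below the warm level. It had 17.3 and 17.7 RPKM in cKO cold, 262 and 263 RPKM in WT cold, and 49.3 and 91.8 RPKM in WT RT. The log2 fold change over WT RT was -1.88 ± 0.26 (limma adjusted p = 0.0028), whereas WT cold was above WT RT by 1.95 on the same scale (limma adjusted p = 0.00118). The test of cKO cold against WT cold gave -3.83 (95% interval -4.46 to -3.21). Tbx1, a marker of beige precursors, had 2 reads in cKO cold and 148 in WT RT, a ratio of 41.1 lower (95% interval 11.2 to 342), and it was as low in WT cold, at 0.184 and 0.179 RPKM. The remaining member called lower was Tnfrsf9, a receptor of the tumour necrosis factor family, with -1.27 ± 0.22 on the log2 scale; it was named after its values were seen, and its call was lost without WT RT replicate 1 and under quantile scaling (limma adjusted p between 0.0628 and 0.0666). Slc27a2, a fatty acid transporter that did not meet the 1 RPKM rule, had 0.228 and 0 RPKM in cKO cold, 14.7 and 6.39 RPKM in WT cold, and 0.221 and 0 RPKM in WT RT.

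The adrenergic receptors Adrb3 and Adrb1 were lower in cKO cold than in WT RT. Adrb3, the beta3-adrenergic receptor of adipocytes, had 25.2 and 22.1 RPKM in cKO cold, 55.7 and 68.9 RPKM in WT cold, and 128 and 139.8 RPKM in WT RT. As deposited, the groups form separate steps, with WT cold in the middle. After centring, the change of Adrb3 in WT cold over WT RT was -0.29 and not called (limma adjusted p = 0.234). Its log2 fold change over WT RT was -2.45 ± 0.15 (limma adjusted p = 0.000151), and that of cKO cold over WT cold was -1.36 (95% interval -1.71 to -0.998). Adrb1, the beta1 receptor, had 1.58 and 1.22 RPKM in cKO cold, 3.01 and 2.13 RPKM in WT cold, and 6.17 and 3.84 RPKM in WT RT (log2 fold change over WT RT -1.30 ± 0.27; limma adjusted p = 0.0121, and between 0.0501 and 0.12 without WT RT replicate 1 or 2 or without cKO cold replicate 2). Over all genes 24.9% were lower and 8.43% higher, with a median of -0.24, and after centring 14.8% and 17.8%. Of the 22 members of the beta-adrenergic and cAMP list, 8 were lower and 1 higher, with a median of -0.44. After centring 3 were lower and 3 higher, and without WT RT replicate 1 or 2, or cKO cold replicate 2, 2 were lower. Pde4b, a phosphodiesterase that ends the cAMP signal, was also lower in both cold groups, at 3.16 and 3.31 RPKM in cKO cold, 2.67 and 4.24 RPKM in WT cold, and 14.9 and 16.5 RPKM in WT RT. The only member called higher was Prkar2b, a regulatory subunit of protein kinase A, named after its values were seen.

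Many genes that take up, store and hold fat were higher than in warm fat in both cold groups. Plin2, which coats lipid droplets, had 469 and 484 RPKM in cKO cold, 480.4 and 478 RPKM in WT cold, and 114 and 155 RPKM in WT RT. All 4 cold libraries stood within a narrow band, and the log2 fold change of cKO cold over WT RT was 1.83 ± 0.16 (limma adjusted p = 0.000586), with a difference from WT cold of -0.01 (95% interval -0.40 to 0.38). Fabp5, a fatty acid carrier, had 259.8 and 458 RPKM in cKO cold, 257 and 268 RPKM in WT cold, and 72.3 and 90.2 RPKM in WT RT (log2 fold change over WT RT 2.08 ± 0.26; limma adjusted p = 0.00191). Acsl1, which activates fatty acids by linking them to coenzyme A, had 733 and 1099 RPKM in cKO cold, 800.0 and 1136 RPKM in WT cold, and 239.5 and 286 RPKM in WT RT. The change of Acsl1 was 1.77 ± 0.25 on the log2 scale (limma adjusted p = 0.00287). Lpl, the lipase that frees fatty acids from circulating lipoproteins, had 1846 and 2716 RPKM in cKO cold, 1242 and 1555 RPKM in WT cold, and 672 and 680.0 RPKM in WT RT (log2 fold change 1.73 ± 0.22; limma adjusted p = 0.002). For Plin2, Fabp5, Acsl1 and Lpl both cold groups lay above warm fat without overlap.

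Among all genes 8.43% were higher and 24.9% lower, and after centring 17.8% and 14.8%. Of 20 members of the lipolysis and fatty acid uptake list, 10 were higher and 1 lower, with a median of 0.45 (11 and 0 after centring). The lower one was Pnpla2, the lipase that starts triglyceride breakdown, with -0.69 ± 0.21 on the log2 scale (limma adjusted p = 0.0428); it was named after its values were seen. That call was lost under 11 of the other settings, among them a pseudocount of 0.1, no filter, centring (-0.38) and the fit of 4 libraries (limma adjusted p between 0.0544 and 0.243), and without cKO cold replicate 2 the change was -0.38. Of 16 genes of triglyceride synthesis and glycerol reuse, 7 were higher and 0 lower (median 0.27; 8 and 0 after centring). Dgat2, which adds the last fatty acid to a triglyceride, had 1002 and 1069.9 RPKM in cKO cold, 726 and 541 RPKM in WT cold, and 368 and 422 RPKM in WT RT. The change of Dgat2 was 1.39 ± 0.18 on the log2 scale (limma adjusted p = 0.00197). Agpat2, which acts earlier in the same pathway, had 952 and 2187 RPKM in cKO cold, 1122 and 565 RPKM in WT cold, and 325 and 382 RPKM in WT RT, a wide spread in the cold (log2 fold change 2.03 ± 0.44; limma adjusted p = 0.0144). The count of higher genes without WT RT replicate 1 was 2 for uptake and 0 for synthesis, and without its replicate 2 it was 6 and 2; without cKO cold replicate 2 it was 10 and 2. The limma adjusted p of Fabp5, Acsl1, Lpl and Dgat2 lay between 0.0511 and 0.0676 without WT RT replicate 1, and that of Agpat2 between 0.0578 and 0.153 without WT RT replicate 1 or 2 or cKO cold replicate 2.

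Of 24 adipocyte markers and adipokines, 8 were higher and 3 lower (median 0.39; 13 and 2 after centring). The shares of all genes were 8.43% and 24.9%, and 17.8% and 14.8% after centring. Pparg, the nuclear receptor that maintains the adipocyte state, had 101 and 130.4 RPKM in cKO cold, 131 and 109 RPKM in WT cold, and 63.3 and 69.5 RPKM in WT RT (log2 fold change 0.78 ± 0.17; limma adjusted p = 0.013, and between 0.0526 and 0.139 without WT RT replicate 1 or 2 or cKO cold replicate 2). Cfd, the serine protease adipsin, had 1006 and 1379 RPKM in cKO cold, 1882 and 2099 RPKM in WT cold, and 4009 and 3991 RPKM in WT RT. The change of Cfd was -1.76 ± 0.20 on the log2 scale (limma adjusted p = 0.00122). As deposited, cKO cold was lowest and WT cold lay between the other groups. After centring, WT cold over WT RT was -0.20 for Cfd and not called (limma adjusted p = 0.521). Nnat, an imprinted gene of the endoplasmic reticulum, had 2.90 and 0 RPKM in cKO cold, 1.01 and 3.43 RPKM in WT cold, and 60.0 and 48.4 RPKM in WT RT. The change of Nnat was -4.80 ± 0.65 on the log2 scale (limma adjusted p = 0.00246, and 0.0613 without WT RT replicate 1). Lep, the satiety hormone leptin, had 245 and 119 RPKM in cKO cold, 76.1 and 5.72 RPKM in WT cold, and 67.8 and 48.2 RPKM in WT RT. Both cKO cold libraries were above all others for Lep, but the spread was wide and it was not called (log2 fold change 1.56 ± 1.01; limma adjusted p = 0.267). The list held, without WT RT replicate 1, 0 higher and 1 lower, and without replicate 2, 2 and 2.

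Part of the nuclear-encoded machinery that burns fuel rose. Of 22 TCA cycle genes 8 were higher and 0 lower (median 0.41), of 27 genes of mitochondrial fatty acid oxidation 4 and 0 (median 0.28), of 37 complex I subunits 6 and 0 (median 0.15), and of 41 nuclear-encoded subunits of complexes II to V 15 and 0 (median 0.32). Over all genes 8.43% were higher and 24.9% lower (median -0.24). After centring the list counts were 15, 18, 18 and 26 higher and 0 lower, against 17.8% and 14.8% of all genes. In WT cold over WT RT the counts were 20, 22, 31 and 34 higher, with medians of 1.35, 1.16, 0.88 and 0.94. In that contrast 6.42% of all genes were higher (median -0.68). The counts in cKO cold without WT RT replicate 1 were 1, 0, 1 and 0, and without its replicate 2 they were 5, 0, 1 and 0.

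Idh3a, a subunit of the isocitrate dehydrogenase of the TCA cycle, had 99.2 and 119 RPKM in cKO cold, 205 and 182 RPKM in WT cold, and 46.7 and 52.4 RPKM in WT RT, the cKO cold libraries standing between the other groups. Its log2 fold change over WT RT was 1.12 ± 0.14 (limma adjusted p = 0.00208), with a difference from WT cold of -0.83 (95% interval -1.17 to -0.48). Slc25a20, the carrier that brings acylcarnitines into mitochondria, had 36.7 and 40.3 RPKM in cKO cold, 117 and 93.2 RPKM in WT cold, and 18.0 and 24.4 RPKM in WT RT (log2 fold change 0.84 ± 0.19; limma adjusted p = 0.0151). Cycs, cytochrome c, had 14.1 and 24.4 RPKM in cKO cold, 59.7 and 43.0 RPKM in WT cold, and 7.36 and 6.27 RPKM in WT RT. The change of Cycs was 1.33 ± 0.28 on the log2 scale (limma adjusted p = 0.0127). Slc25a20 and Cycs lost their calls without WT RT replicate 1 or 2 (limma adjusted p between 0.0513 and 0.141), in the case of Slc25a20 also without cKO cold replicate 2.

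No change was called for the mRNAs made from mitochondrial DNA. Of 10 tested, 0 were called in either direction by limma (2 with an unadjusted p under 0.05; median -0.07), against 10 of 10 higher in WT cold over WT RT (median 1.25). mt-Co1, a core subunit of complex IV, had 16423 and 16461 RPKM in cKO cold, 38504 and 37289 RPKM in WT cold, and 15666 and 16292 RPKM in WT RT. The log2 fold change over WT RT was 0.04 ± 0.25 (limma adjusted p = 0.913), and that of cKO cold over WT cold was -1.204 (95% interval -1.80 to -0.60). After centring 2 of the 10 were called higher, and under quantile scaling the change of mt-Co1 was -0.52 and not called.

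**Figure D3:**
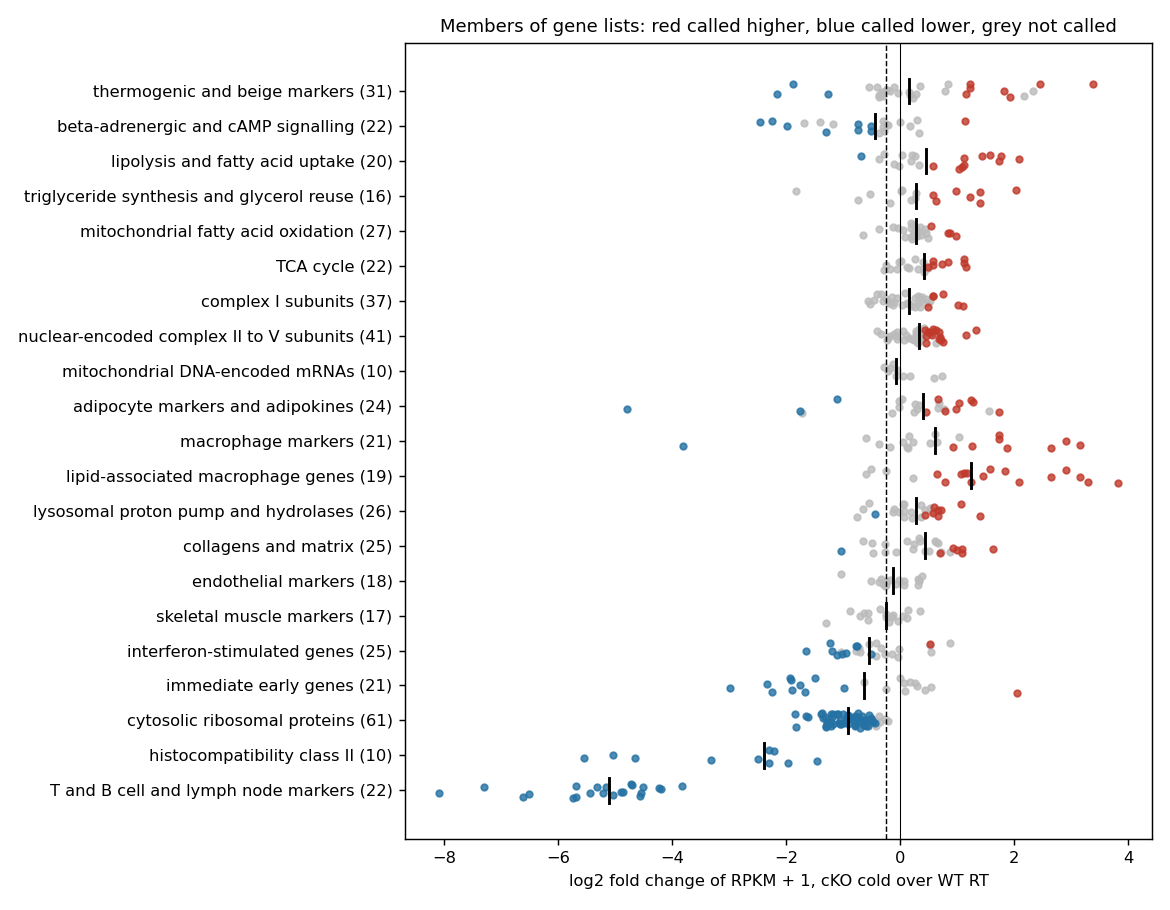
Members of 21 gene lists (rows, with the number tested in brackets) by their log2 fold change of RPKM + 1 in cKO cold over WT RT; each point is a gene, red called higher, blue called lower and grey not called, and the black bar is the list's median. The dashed line is the median of all genes tested, -0.24. Lipid-associated macrophage genes stand furthest right, with a median of 1.24, and T and B cell and lymph node markers furthest left, with a median of -5.10.

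Lipid-making and sugar-burning enzymes rose in part, where 8.43% of all genes were higher and 24.9% lower (17.8% and 14.8% after centring). In de novo lipogenesis 6 of 19 were higher and 0 lower (median 0.60; 11 and 0 after centring), among them Me1, the malic enzyme that supplies NADPH, with 538 and 939.5 RPKM in cKO cold, 1576 and 1875 RPKM in WT cold, and 233 and 361 RPKM in WT RT. In glycolysis 6 of 20 were higher and 1 lower (median 0.13; 7 and 1 after centring). Tpi1, triose phosphate isomerase, had 257 and 326 RPKM in cKO cold, 233 and 223 RPKM in WT cold, and 96.9 and 93.8 RPKM in WT RT (log2 fold change 1.59 ± 0.14; limma adjusted p = 0.000599). Both cold groups stood clear of warm fat for Tpi1. Eno3, the muscle enolase, was the lower one, with a log2 fold change of -2.35 ± 0.44. Of 9 genes of heat production that needs no Ucp1, 3 were higher and 0 lower (median 0.62; 6 and 0 after centring). Kcnk3, a potassium channel of thermogenic fat, had 54.8 and 72.6 RPKM in cKO cold, 71.2 and 72.5 RPKM in WT cold, and 22.2 and 30.6 RPKM in WT RT. The change of Kcnk3 was 1.24 ± 0.20 on the log2 scale. Gamt and Gatm, which make creatine, rose by 0.76 ± 0.18 and 0.93 ± 0.25. Without WT RT replicate 1, 0 genes of lipogenesis, 3 of glycolysis and 0 of Ucp1-independent heat were called higher, and without its replicate 2, 2, 3 and 1; without cKO cold replicate 2 there were 3, 3 and 3. Me1, Gamt, Gatm, Kcnk3 and Eno3 lost their calls without WT RT replicate 1 (limma adjusted p up to 0.209 in any fit that lost a call), and all but Kcnk3 also without its replicate 2.

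The next lists stand against 8.43% higher and 24.9% lower over all genes, and 17.8% and 14.8% after centring. Of 21 antioxidant enzymes 8 were higher and 2 lower (median 0.30; 11 and 1 after centring), and of 15 chaperones 4 and 0 (median 0.15; 7 and 0 after centring). Of 19 genes of branched-chain amino acid breakdown 4 were higher and 2 lower (median -0.05; 8 and 0 after centring), and of 20 in insulin signalling 4 and 4 (median -0.17; 5 and 2 after centring). Of 19 clock genes 1 was higher and 0 lower (median 0.21; 3 and 0 after centring), and of 17 glucocorticoid-induced genes 0 and 2 (median -0.60; 0 and 1 after centring). Prdx6, a peroxiredoxin, had 127 and 135 RPKM in cKO cold, 94.6 and 103 RPKM in WT cold, and 45.6 and 45.7 RPKM in WT RT (log2 fold change 1.499 ± 0.12; limma adjusted p = 0.000348). Among 20 ATF4 target genes, which answer amino acid and mitochondrial stress, 3 were higher and 4 lower (median 0.04; 6 and 3 after centring). Psat1 of serine synthesis had 45.1 and 42.7 RPKM in cKO cold, 24.7 and 20.5 RPKM in WT cold, and 20.2 and 19.0 RPKM in WT RT. The change of Psat1 was 1.13 ± 0.14 on the log2 scale (limma adjusted p = 0.00211). The chaperones were led by Cryab, a small heat shock protein, with 95.6 and 103 RPKM in cKO cold, 40.4 and 59.7 RPKM in WT cold, and 29.1 and 28.9 RPKM in WT RT (log2 fold change 1.74 ± 0.19; limma adjusted p = 0.00114). Both cKO cold libraries were the highest for Prdx6, Psat1 and Cryab. Without WT RT replicate 1 or 2 the counts of higher genes were 0 or 1 in each of these lists.

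Most genes of lipid-laden macrophages were higher in cKO cold. Of 19 lipid-associated macrophage genes, 4 were higher and 5 lower in WT cold over WT RT (median -0.16), against 6.42% and 51.8% of all genes. After centring these counts were 8 and 1 (median 0.65). In cKO cold over WT RT 15 of the 19 were higher and 0 lower, with a median of 1.24 (15 and 0 after centring). Without WT RT replicate 1 the count was 5, without its replicate 2 it was 10, and without cKO cold replicate 1, 13 were higher and 2 lower. The list's median in cKO cold over WT cold was 1.61, and 1.11 after centring. In that contrast 14 were higher and 0 lower, against 24.0% and 2.77% of all genes, and 10 and 1 after centring. Those calls rest on the spread of the WT RT libraries, as described above. Several of these genes, Plin2 and Fabp5 among them, are also made by adipocytes.

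Trem2, a lipid-sensing receptor of macrophages, had 21.0 and 11.9 RPKM in cKO cold, 0.109 and 1.06 RPKM in WT cold, and 0.489 and 1.41 RPKM in WT RT. Both cKO cold libraries were far above all 4 others, with 3.15 ± 0.42 on the log2 scale over WT RT (limma adjusted p = 0.00233) and of 3.48 over WT cold (95% interval 2.49 to 4.47). Lgals3, the sugar-binding protein galectin-3, had 203 and 167 RPKM in cKO cold, 29.6 and 35.8 RPKM in WT cold, and 27.2 and 30.2 RPKM in WT RT. The change of Lgals3 was 2.64 ± 0.16 on the log2 scale (limma adjusted p = 0.00014). Atp6v0d2, a proton pump subunit of macrophages and osteoclasts, had 33.4 and 12.3 RPKM in cKO cold, 0.227 and 1.86 RPKM in WT cold, and 0.102 and 1.06 RPKM in WT RT (log2 fold change 3.83 ± 0.59; limma adjusted p = 0.00397). Mmp12, the macrophage elastase, had 31.0 and 12.9 RPKM in cKO cold, 0 and 1.12 RPKM in WT cold, and 0.573 and 1.91 RPKM in WT RT. The change of Mmp12 was 3.30 ± 0.54 on the log2 scale (limma adjusted p = 0.00496). For Lgals3, Atp6v0d2 and Mmp12 WT cold and WT RT lay close together and well below cKO cold. Gpnmb, a lysosomal glycoprotein of such cells, had 120.4 and 17.1 RPKM in cKO cold, 2.83 and 7.04 RPKM in WT cold, and 4.71 and 5.77 RPKM in WT RT, so that replicate 1 was far above replicate 2 (log2 fold change 2.91 ± 0.82; limma adjusted p = 0.0338). Trem2, Atp6v0d2 and Mmp12 lost their calls without WT RT replicate 1 (limma adjusted p between 0.0553 and 0.0886), and Gpnmb without WT RT replicate 1 or 2, cKO cold replicate 1 or the filter (0.0561 to 0.223).

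Of 21 general macrophage markers, 8 were higher and 1 lower (median 0.62), and 11 and 1 after centring. The shares of all genes were 8.43% and 24.9%, and after centring 17.8% and 14.8%. In WT cold over WT RT 1 was higher and 14 lower (median -1.14), where 51.8% of all genes were lower (median -0.68). After centring these counts were 3 and 7 (median -0.34). In cKO cold over WT cold the median was 1.98, with 18 higher and 0 lower, where 24.0% of all genes were higher. After centring it was 1.48, with 15 and 0, and these calls too rest on the spread of the WT RT libraries. Cd68, a membrane protein of macrophage endosomes, had 175 and 139 RPKM in cKO cold, 12.9 and 16.9 RPKM in WT cold, and 40.1 and 44.1 RPKM in WT RT. The WT cold libraries were the lowest and the cKO cold libraries the highest, with 1.87 ± 0.18 on the log2 scale over WT RT (limma adjusted p = 0.000738) and of 3.31 over WT cold (95% interval 2.89 to 3.74). Timd4, a receptor of long-lived resident macrophages, went the other way, at 2.24 and 1.77 RPKM in cKO cold, 1.59 and 0.517 RPKM in WT cold, and 35.9 and 47.2 RPKM in WT RT (log2 fold change -3.81 ± 0.30; limma adjusted p = 0.000379). In the footprint libraries, which were not used for any of these tests, Cd68 had 190.4 and 245 RPKM in cKO cold and 67.7 and 88.7 RPKM in WT cold, and Trem2 had 44.3 and 26.4 RPKM in cKO cold and 2.14 and 4.21 RPKM in WT cold. Lpl, which adipocytes make in abundance, is a member of this list, 1 of its 8 higher genes and the source of most of its reads. Without Lpl the list took 0.380% and 0.181% of reads in cKO cold, 0.0532% and 0.0549% in WT cold, and 0.176% and 0.192% in WT RT. By that share cKO cold replicate 2 lay within the WT RT libraries and replicate 1 above them, and both WT cold libraries were the lowest. The higher count was 2 without WT RT replicate 1, and without its replicate 2 it was 4.

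Shares over all genes were 8.43% higher and 24.9% lower, and 17.8% and 14.8% after centring. Of 21 cytokine and chemokine genes, 7 were higher and 5 lower (median 0.11; 7 and 3 after centring). The higher ones included the monocyte attractant Ccl7, with 8.85 and 12.5 RPKM in cKO cold, 0 and 0.28 RPKM in WT cold, and 0.967 and 1.52 RPKM in WT RT. The change of Ccl7 was 2.37 ± 0.27 on the log2 scale (limma adjusted p = 0.00124). Ccl9, another chemokine of myeloid cells, had 44.5 and 29.6 RPKM in cKO cold, 7.06 and 13.5 RPKM in WT cold, and 5.67 and 7.19 RPKM in WT RT (log2 fold change 2.34 ± 0.32; limma adjusted p = 0.00269, and 0.0626 without WT RT replicate 1). Both stood clear of the 4 wild-type libraries. Of 26 lysosomal proton pump and hydrolase genes, 8 were higher and 1 lower (median 0.28; 12 and 0 after centring). Atp6v0a1, a membrane subunit of the proton pump, had 70.8 and 86.0 RPKM in cKO cold, 27.4 and 29.4 RPKM in WT cold, and 27.9 and 30.1 RPKM in WT RT. The change of Atp6v0a1 was 1.40 ± 0.14 on the log2 scale (limma adjusted p = 0.000945). The 3 mast cell proteases called were higher as well; Cpa3 had 23.1 and 16.3 RPKM in cKO cold, 4.54 and 0.465 RPKM in WT cold, and 3.56 and 5.31 RPKM in WT RT (log2 fold change 1.93 ± 0.58; limma adjusted p = 0.0421). Cma1 and Tpsb2 were the others, and all 3 were named after their values were seen. None of the 3 kept its call without WT RT replicate 1 or 2, and Cpa3 lost it also without either cKO cold replicate, with a pseudocount of 0.1 and without the filter (limma adjusted p between 0.0846 and 0.269). Without WT RT replicate 1, 4 chemokine, 2 lysosomal and 0 mast cell genes were higher; without its replicate 2 there were 3, 2 and 0, and without cKO cold replicate 1, 6, 4 and 1.

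A further set of genes, picked by their values, was higher as deposited in cKO cold than in both wild-type groups and belongs to no immune list. Mogat2, an acyltransferase that makes diacylglycerol, had 20.8 and 25.2 RPKM in cKO cold, 1.36 and 2.40 RPKM in WT cold, and 0.435 and 0.379 RPKM in WT RT. The log2 fold change was 4.09 ± 0.25 over WT RT (limma adjusted p = 0.000147) and 3.08 over WT cold (95% interval 2.49 to 3.67). Oxtr, the oxytocin receptor, had 39.1 and 66.2 RPKM in cKO cold, 10.3 and 5.44 RPKM in WT cold, and 2.30 and 4.02 RPKM in WT RT (log2 fold change 3.67 ± 0.37 over WT RT; limma adjusted p = 0.000892). Kcnj15, an inward rectifier potassium channel, had 19.0 and 21.8 RPKM in cKO cold, 5.60 and 11.9 RPKM in WT cold, and 1.81 and 1.23 RPKM in WT RT. The change of Kcnj15 was 3.09 ± 0.33 on the log2 scale (limma adjusted p = 0.00106). Marc1, a mitochondrial reductase, had 39.6 and 41.3 RPKM in cKO cold, 21.3 and 28.4 RPKM in WT cold, and 2.40 and 3.08 RPKM in WT RT (log2 fold change 3.48 ± 0.19; limma adjusted p = 0.000108), with WT cold closer to cKO cold than to warm fat. Over WT cold Marc1 changed by 0.70 as deposited (95% interval 0.24 to 1.15). After centring that difference was 0.20 and not called (95% interval -0.32 to 0.72; limma adjusted p = 0.586). In the footprints Mogat2 had 31.2 and 61.2 RPKM in cKO cold and 1.198 and 1.57 RPKM in WT cold, and Oxtr had 45.4 and 84.9 RPKM in cKO cold and 5.16 and 3.15 RPKM in WT cold. Input and footprint libraries thus placed cKO cold above WT cold for both genes. Aadac, an esterase known from liver, had 83 reads in cKO cold and none in WT RT, at least 49.9-fold higher with WT RT set at 3 reads over its libraries (counting error only). Mup17, a major urinary protein, had 23.7 and 8.86 RPKM in cKO cold, 0.622 and 0.727 RPKM in WT cold, and 0.278 and 0.874 RPKM in WT RT, but its family holds near-identical copies between which reads could be split, so its value is uncertain; its call was also lost without WT RT replicate 1 (limma adjusted p = 0.0557).

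**Figure D4:**
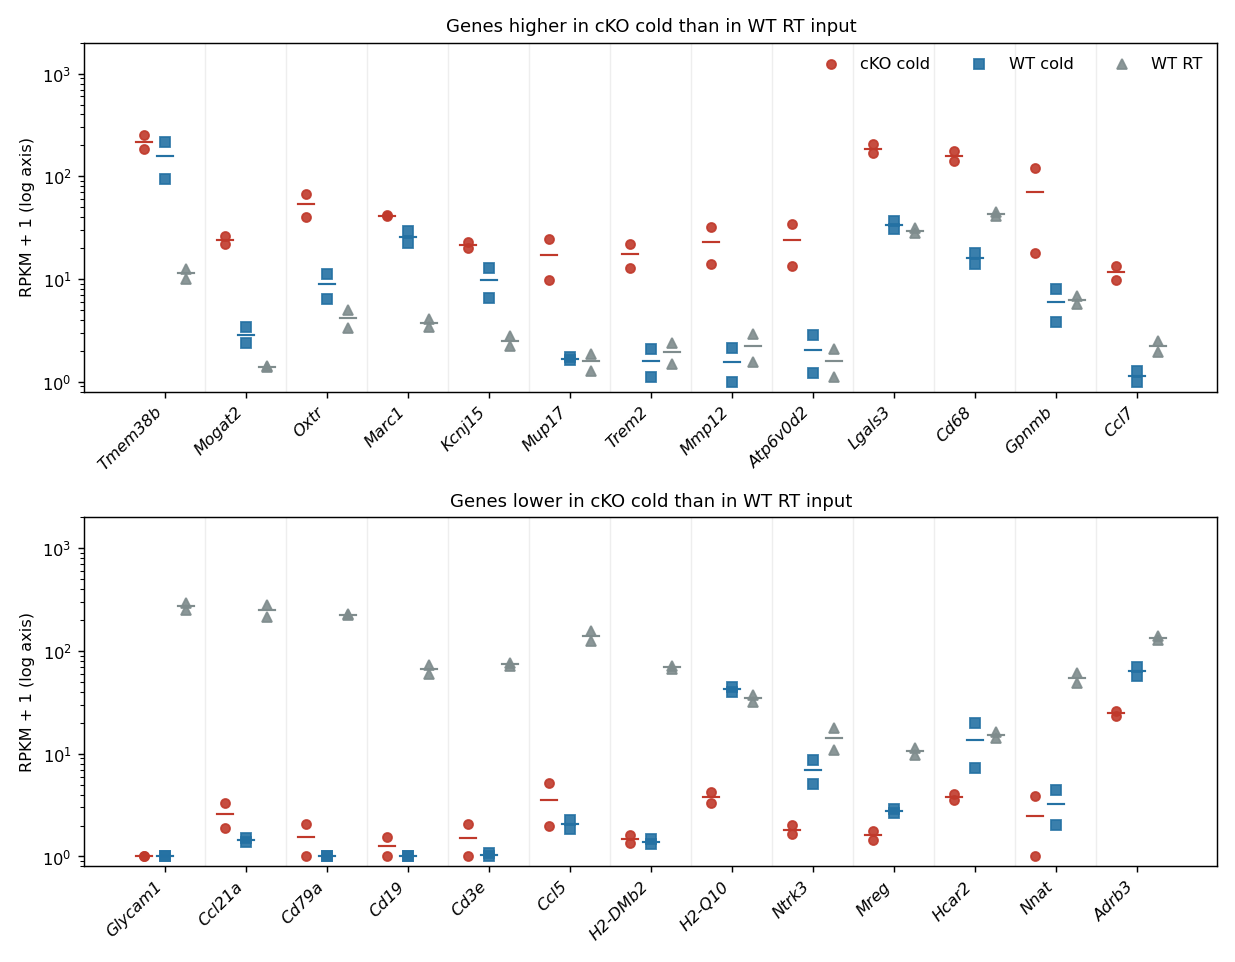
RPKM + 1 on a log axis in each input library for 13 genes higher (top) and 13 genes lower (bottom) in cKO cold than in WT RT; points are libraries and short lines the mean of 2 libraries plus 1. Mogat2, Mup17, Trem2, Mmp12, Atp6v0d2, Lgals3 and Ccl7 are higher in both cKO cold libraries than in all 4 wild-type libraries, whereas Glycam1, Cd79a and Cd3e are near 0 in both cold groups.

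Other genes rose alike in both cold groups, within 0.5 on the log2 scale of each other. They were picked by that rule, so their likeness is a description only. Hephl1, a copper-binding ferroxidase, had 17.6 and 27.9 RPKM in cKO cold, 24.8 and 12.9 RPKM in WT cold, and 2.01 and 2.95 RPKM in WT RT (log2 fold change over WT RT 2.75 ± 0.35; limma adjusted p = 0.00205). Klkb1, the plasma prekallikrein, had 4.14 and 5.58 RPKM in cKO cold, 3.29 and 4.88 RPKM in WT cold, and 0.123 and 0.18 RPKM in WT RT (log2 fold change 2.34 ± 0.25; limma adjusted p = 0.00103). Apmap, a plasma membrane protein of adipocytes, had 109 and 172 RPKM in cKO cold, 91.6 and 107 RPKM in WT cold, and 35 and 37.0 RPKM in WT RT. The change of Apmap was 1.90 ± 0.22 on the log2 scale (limma adjusted p = 0.00137). The cold libraries of both genotypes overlapped for Hephl1 and Klkb1 and lay above warm fat for all of these genes. Reep6, which shapes endoplasmic reticulum membranes, had 77.5 and 49.8 RPKM in cKO cold, 58.5 and 36.5 RPKM in WT cold, and 14.4 and 13.6 RPKM in WT RT. Aldh1a7, an aldehyde dehydrogenase, had 127 and 122 RPKM in cKO cold, 98.7 and 102 RPKM in WT cold, and 27.7 and 31.5 RPKM in WT RT, with the reservation that Aldh1a1 is a close copy. Hephl1 and Reep6 lost their calls without WT RT replicate 1 (limma adjusted p between 0.0518 and 0.0523), and Reep6 also without its replicate 2.

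Tmem38b and Xkrx changed in opposite directions in input and in m6A libraries. Tmem38b is a potassium channel of intracellular membranes. Among called genes open to naming, without overlap and averaging at least 5 RPKM in the higher group, it had the largest positive change. It had 252 and 182 RPKM in cKO cold, 93.7 and 217 RPKM in WT cold, and 9.06 and 11.6 RPKM in WT RT, a change of 4.25 ± 0.38 on the log2 scale (limma adjusted p = 0.000571). In the m6A libraries it had 5.52 and 4.48 RPKM in cKO cold, 6.61 and 6.14 RPKM in WT cold, and 9.40 and 15.2 RPKM in WT RT, or -1.12 on the log2 scale (limma adjusted p = 0.00844). In input both cold groups lay above warm fat and overlapped each other, and after capture the cKO cold libraries were the lowest. Xkrx, a gene of the XK family, had 109.9 and 63.0 RPKM in cKO cold input, 10.8 and 57.1 RPKM in WT cold input, and 5.30 and 5.21 RPKM in WT RT input, but 0.412 and 0.393 RPKM in cKO cold, 0.229 and 0.433 RPKM in WT cold, and 6.26 and 8.54 RPKM in WT RT after capture. Its changes were 3.75 ± 0.67 in input (limma adjusted p = 0.00714, and between 0.0929 and 0.1 without WT RT replicate 1 or 2) and -2.57 in m6A libraries (limma adjusted p = 0.000161). In footprints Tmem38b had 21.0 and 25.5 RPKM in cKO cold and 23.3 and 9.57 RPKM in WT cold.

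Such reversals were few. In the m6A libraries 1299 of 12221 tested genes were higher in cKO cold than in WT RT (10.6%) and 4369 lower (35.7%). After centring these counts were 2816 and 2303, and the total of 5668 was 2615 without WT RT replicate 1 and 2600 without its replicate 2. Of the 11919 genes tested in both kinds of library, 2985 were called in the same direction and 42 in opposite directions, 24 of these higher in input and lower after capture. Input and captured libraries of 1 number deviated together within each condition, so these calls are not independent. A level after capture depends both on the amount of RNA and on its methylation.

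Markers of lymphoid tissue had the lowest median of the lists and were near 0 in both cold groups. All 22 tested T and B cell and lymph node markers were lower in cKO cold than in WT RT (median -5.10 on the log2 scale, and -5.19 with members at 0 set at their bound), and all 22 were lower in WT cold; the 22 remained called without each library in turn. Glycam1, an adhesion molecule of lymph node vessels, was listed at 0 in all 4 cold libraries and at 252 and 291 RPKM in WT RT, at least 478-fold lower in cKO cold with cKO cold set at 3 reads over its libraries. Cd79a of the B cell receptor had 1.06 and 0 RPKM in cKO cold, 0 and 0 RPKM in WT cold, and 229.5 and 221 RPKM in WT RT (log2 fold change -7.30 ± 0.33; limma adjusted p = 7.2e-05). Cd3e of the T cell receptor had 0 and 1.05 RPKM in cKO cold, 0.0789 and 0 RPKM in WT cold, and 76.3 and 70.0 RPKM in WT RT. The change of Cd3e was -5.69 ± 0.34 on the log2 scale (limma adjusted p = 0.00014). Ccl21a, a chemokine that draws lymphocytes into lymph nodes, had 2.29 and 0.885 RPKM in cKO cold, 0.398 and 0.516 RPKM in WT cold, and 282 and 213 RPKM in WT RT. Warm libraries held all of these genes at high levels, and cold libraries of both genotypes held almost none. The members of this list took 0.00284% and 0.00216% of reads in cKO cold, 0.000749% and 0.000472% in WT cold, and 0.286% and 0.267% in WT RT. In the footprint libraries of the cold groups, however, Glycam1 had 327 and 93.6 RPKM in cKO cold and 159.8 and 176 RPKM in WT cold. Footprint and input libraries of 1 condition therefore did not hold the same lymphoid share. The part of lymph node tissue in other changes against WT RT was not tested.

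All 10 class II histocompatibility genes were lower (median -2.40; 10 after centring), among them H2-DMb2, with 0.623 and 0.361 RPKM in cKO cold, 0.324 and 0.473 RPKM in WT cold, and 65.8 and 70.5 RPKM in WT RT; reads of such genes can be split between near-identical copies. Without either WT RT replicate 3 of the 10 were called. Of 17 neutrophil and mast cell markers 10 were lower (median -1.10; 9 after centring), all of them neutrophil genes; S100a9, a calcium-binding protein of neutrophils, had 0 and 0.495 RPKM in cKO cold, 0.222 and 2.16 RPKM in WT cold, and 26.9 and 30.7 RPKM in WT RT, or 1 read against 226, a ratio of 125 lower (95% interval 22.3 to 4980). Among all genes 24.9% were lower and 8.43% higher, and after centring 14.8% and 17.8%. Of 28 proteasome subunits 4 were lower and 2 higher (median 0.21; 4 and 10 after centring), and those lower were the inducible immunoproteasome subunits Psmb8, Psmb9 and Psmb10 and the activator Psme1. Psmb9, Psmb10 and Psme1 lost their calls without WT RT replicate 1 or 2. Psmb8 had 12.4 and 9.15 RPKM in cKO cold, 8.92 and 6.62 RPKM in WT cold, and 62.7 and 64.6 RPKM in WT RT (log2 fold change -2.47 ± 0.20; limma adjusted p = 0.000416). Of 25 interferon-stimulated genes 9 were lower and 1 higher (median -0.54), where 24.9% of all genes were lower. After centring 4 were lower, where 14.8% of all genes were, and without WT RT replicate 1 or 2, 0 or 1. Lymphoid markers fell in the same libraries as each of these groups.

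Most genes of cytosolic ribosomal proteins fell, where 24.9% of all genes did (14.8% after centring). Of 61 tested, 56 were lower and 0 higher (median -0.91), 35 were lower after centring, and 20 or 26 without WT RT replicate 1 or 2. Rps13, of the small subunit, had 103 and 113 RPKM in cKO cold, 67.1 and 72.4 RPKM in WT cold, and 327 and 343 RPKM in WT RT. The change of Rps13 was -1.62 ± 0.12 on the log2 scale (limma adjusted p = 0.000284). Rplp2, of the large subunit's stalk, had 35.9 and 37.3 RPKM in cKO cold, 27.3 and 32.6 RPKM in WT cold, and 129 and 138 RPKM in WT RT (log2 fold change -1.84 ± 0.13; limma adjusted p = 0.000292). Both cold groups were far below warm fat for these genes, and cKO cold was the higher of them as deposited. In cKO cold over WT cold 48 members of the list were higher (median 0.68), where 24.0% of all genes were (median 0.41). After centring 2 members were higher in that contrast (median 0.18). Many ribosomal protein genes have near-identical pseudogene copies, so single values are uncertain. The list took 1.02% and 1.01% of reads in cKO cold, 0.584% and 0.651% in WT cold, and 1.91% and 1.88% in WT RT.

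Of 21 immediate early genes, which answer stimuli within minutes, 10 were lower and 1 higher (median -0.64), and 8 lay above 0. Among all genes 24.9% were lower and 8.43% higher. After centring 5 immediate early genes were lower, where 14.8% of all genes were. Egr3, a zinc finger factor, had 1.86 and 0.456 RPKM in cKO cold, 0.322 and 0.57 RPKM in WT cold, and 14.5 and 16.1 RPKM in WT RT. The change of Egr3 was -3.00 ± 0.33 on the log2 scale (limma adjusted p = 0.00124). The exception was Atf3, a stress factor, with 14.6 and 8.28 RPKM in cKO cold, 1.39 and 7.81 RPKM in WT cold, and 1.496 and 2.38 RPKM in WT RT (log2 fold change 2.05 ± 0.59; limma adjusted p = 0.037), a call lost without any 1 library of cKO cold or WT RT, with a pseudocount of 0.1 and without the filter (limma adjusted p between 0.0562 and 0.25).

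Klf9, the factor named in the study's title as a target of METTL3, had 38.6 and 32.0 RPKM in cKO cold, 28.8 and 48.0 RPKM in WT cold, and 25.1 and 26.1 RPKM in WT RT. Both cold groups were above warm fat and overlapped, and neither change was called as deposited (log2 fold change of cKO cold over WT RT 0.44 ± 0.24; limma adjusted p = 0.193; cKO cold against WT cold -0.08, 95% interval -0.65 to 0.49). After centring, cKO cold over WT RT was 0.76 (limma adjusted p = 0.0715) and WT cold over WT RT was 1.33 and called higher (limma adjusted p = 0.00818), with a difference of cKO cold from WT cold of -0.58 (limma adjusted p = 0.199). Of 12 tested KLF factors 4 were lower and 0 higher (median -0.21; 2 and 0 after centring), led by Klf2, an endothelial and lymphocyte factor, with 22.4 and 12.4 RPKM in cKO cold, 16.5 and 19.7 RPKM in WT cold, and 88.5 and 83.3 RPKM in WT RT (log2 fold change -2.30 ± 0.26; limma adjusted p = 0.00131). Of 25 m6A writers, erasers and readers 7 were lower, Mettl3 among them, and 2 higher (median -0.36), close to the 24.9% and 8.43% of all genes; after centring these counts were 3 and 3, and without either WT RT replicate 0 and 0. Without either WT RT replicate 1 KLF factor was lower.

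Some genes outside the lists were lower in cKO cold than in both wild-type groups. H2-Q10, a class I histocompatibility gene with close copies, had 3.23 and 2.32 RPKM in cKO cold, 38.8 and 43.6 RPKM in WT cold, and 30.8 and 36.6 RPKM in WT RT (log2 fold change -3.21 ± 0.18 over WT RT; limma adjusted p = 0.000122). Wild-type fat of both temperatures stood together, and the log2 fold change of cKO cold over WT cold was -3.49 (95% interval -3.93 to -3.05). Ntrk3, a neurotrophin receptor, had 0.639 and 1.02 RPKM in cKO cold, 4.07 and 7.69 RPKM in WT cold, and 9.86 and 16.7 RPKM in WT RT. The change of Ntrk3 was -2.93 ± 0.35 on the log2 scale (limma adjusted p = 0.00155). Mreg, melanoregulin, had 0.776 and 0.45 RPKM in cKO cold, 1.92 and 1.67 RPKM in WT cold, and 8.82 and 10.3 RPKM in WT RT (log2 fold change -2.71 ± 0.22; limma adjusted p = 0.000392). Hcar2, a receptor for ketone bodies that restrains lipolysis, had 2.53 and 3.06 RPKM in cKO cold, 6.27 and 18.8 RPKM in WT cold, and 13.3 and 15.1 RPKM in WT RT. The change of Hcar2 was -2.01 ± 0.43 on the log2 scale (limma adjusted p = 0.0137, and between 0.0545 and 0.137 without any 1 library of cKO cold or WT RT). Cntfr, a cytokine receptor subunit, had 2 and 1.80 RPKM in cKO cold, 6.24 and 7.76 RPKM in WT cold, and 9.32 and 9.61 RPKM in WT RT (log2 fold change -1.85 ± 0.20; limma adjusted p = 0.00106). For all 5 genes both cKO cold libraries were below all 4 wild-type libraries. They were picked by their values against both wild-type groups, so this separation is a description only.

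Stromal and vascular markers were mixed. In cKO cold over WT RT 8.43% of all genes were higher and 24.9% lower, and after centring 17.8% and 14.8%. Of 21 fibroblast and preadipocyte markers 3 were higher and 4 lower (median 0.14; 4 and 3 after centring), of 25 collagen and matrix genes 6 and 1 (median 0.44; 12 and 1 after centring), and of 11 smooth muscle and pericyte markers 1 and 2 (median -0.33; 2 and 1 after centring). Lum, a matrix proteoglycan, had 73.1 and 42.4 RPKM in cKO cold, 17.9 and 6.69 RPKM in WT cold, and 17.3 and 19.6 RPKM in WT RT. The change of Lum was 1.55 ± 0.43 on the log2 scale (limma adjusted p = 0.0334, and between 0.051 and 0.223 without any 1 library of cKO cold or WT RT and without the filter). Col18a1, a basement membrane collagen, had 49.0 and 31.9 RPKM in cKO cold, 11.8 and 8.11 RPKM in WT cold, and 17.9 and 18.2 RPKM in WT RT (log2 fold change 1.09 ± 0.25; limma adjusted p = 0.0168, and between 0.0606 and 0.148 without WT RT replicate 1 or 2 or cKO cold replicate 1). The cKO cold libraries were the highest for both. Of 18 endothelial markers 0 were called by limma (median -0.13); 5 had an unadjusted p under 0.05, all 5 lower, whereas 4 were called higher after centring. Among them, Cdh5, the cadherin of vessel walls, had 85.6 and 115 RPKM in cKO cold, 75.5 and 69.7 RPKM in WT cold, and 83.2 and 77.0 RPKM in WT RT, and was 1 of those called higher after centring (0.62; limma adjusted p = 0.0308). Of 21 cell cycle genes 1 was higher and 1 lower (median -0.60; 1 and 0 after centring), and of 9 Schwann cell and nerve markers 1 and 1 (median 0.47; 3 and 1 after centring). Without either WT RT replicate 0 fibroblast and 0 matrix genes were higher.

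Skeletal muscle genes varied by library and not by group. Acta1, muscle actin, had 1.23 and 40.1 RPKM in cKO cold, 0.718 and 5.59 RPKM in WT cold, and 105 and 4.30 RPKM in WT RT, and 0 of 17 tested muscle markers were called by limma (0 with an unadjusted p under 0.05). Their list took 0.00372% and 0.0692% of reads in cKO cold, 0.00475% and 0.00386% in WT cold, and 0.1% and 0.00396% in WT RT. Eno3, described with glycolysis, is a muscle enzyme too. Of 5 red cell genes 1 was called higher (2 after centring), Hbb-bs, a globin with a near-identical copy; that call was lost under 10 of the other settings tried. None of the mammary and skin epithelium or male tract markers reached the 1 RPKM rule.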

How the data were processed

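RNA of cKO cold, WT cold and WT RT fat was sequenced as input and m6A-captured libraries, with ribosome footprints of the cold groups. Reads were aligned with HISAT2 to mm10, per the submitters' processing notes. The authors deposited a table of RPKM values; the counting tool, annotation and read total used for scaling are not given in the sources used here. All value columns were matched to samples by name, and 0 were left unmapped. Low values were whole multiples of 1 read, which gave the read totals; counting intervals and floors of 3 reads cover counting error only.

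Genes reaching 1 RPKM in 2 or more of 4 libraries were tested on log2(RPKM + 1) with limma 3.58.1 (lmFit and eBayes with trend, R 4.3.3), in 1 fit of the 6 input libraries with 3 residual degrees of freedom, with Benjamini-Hochberg adjustment over all tested genes. Fold changes are on that log2 scale, which understates the change of low genes. The m6A libraries had their own fit. Tables and figures used Python 3.11.15, numpy 2.4.6, pandas 2.3.3, scipy 1.17.1 and matplotlib 3.10.9. The code was tested on simulated data. Symbols borne by more than 1 gene stayed out of the lists.

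Genes were named by rule: the 12 of largest change each way among those called, without overlap between groups and averaging at least 5 RPKM in 1 of them, the 4 of largest change of each list, 10 each way of those alike in both cold groups and of those differing from both wild-type groups, and a set of known cold-response genes; exceptions are marked. In naming outside the lists and the known set, Gm and Rik genes, pseudogenes, mitochondrial rRNA, clone names and shared symbols were skipped. The members and lists were chosen with earlier results of these data known. Promoters came from RefSeq, GRCm38.p6. Alternatives were a pseudocount of 0.1, no filter, median-centred, quantile and non-mitochondrial scaling, a fit of 4 libraries, no trend, each library left out, and the replicate number as a block. Between conditions, same-numbered input libraries did not deviate together (correlations of -0.104 to 0.0483), so the numbers were not taken to pair conditions. Within a condition, input and m6A libraries of 1 number did (0.423 to 0.561), so the input and m6A values are not independent.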

Additional observations from a re-analysis of the deposited data

How the results depend on the processing

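Calls of cKO cold against WT RT depended most on scaling and on the WT RT libraries. Genes called higher numbered 2242 after centring and 2251 under quantile scaling, and genes called lower 1861 and 2003. Leaving out each library in turn gave 154 to 1276 higher and 794 to 3635 lower, 3357 to 7690 called in WT cold over WT RT, 1 to 3804 in cKO cold over WT cold and 2600 to 6156 in the m6A libraries. For cKO cold over WT cold, 1577 were called after centring, 1385 under quantile scaling and 1 with the 4 cold libraries alone. The cause was not tested.

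Of 99 genes named and tested, 86 were called, and 44 of these were called under every setting and 77 under every setting that kept all libraries. Some changes that were not called turned sign: Cpt1b to 0.28 after centring, 0.29 under quantile scaling and 0.082 under scaling outside mitochondrial mRNAs, with -0.45 to 0.38 over the fits that left out a library; Cox8b, with -0.086 to 0.39 when a library was left out; Otop1 to 0.054 and mt-Co1 to -0.52 under quantile scaling; and Acta1, with -3.46 to 0.85 when a library was left out.

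With the replicate number as a block, 1046 genes were higher and 3069 lower; deviations of same-numbered libraries correlated at -0.104 between cKO cold and WT RT, -0.0012 between the cold groups and 0.0483 between WT cold and WT RT. With the numbers crossed, an alternative chosen after seeing the data, 1011 were higher and 2889 lower. At 3895031 to 8673393 reads per input library, genes near 1 RPKM rest on few reads.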
